A study of Arabidopsis thaliana with 16 samples.

Results

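Transcription factor genes of Arabidopsis pollen were followed in the RNA of young flower buds. They are 10 loci chosen by name: the MADS-box genes AGL30 (AT2G03060), AGL65 (AT1G18750), AGL66 (AT1G77980) and AGL104 (AT1G22130), the MYB genes MYB97 (AT4G26930), MYB101 (AT2G32460) and MYB120 (AT5G55020), the WRKY genes WRKY34 (AT4G26440) and WRKY2 (AT5G56270), and DUO1 (AT3G60460). All 10 were among the 33681 genes of the deposited tables. Of these, 6 passed the filter of at least 1 CPM (counts per 1000000 counts) in at least 1 library and were tested with 21309 genes in all. AGL66, MYB97, MYB120 and DUO1 stayed under 1 CPM in all 16 libraries and are described by their counts.

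The libraries came from 4 groups of 4 biological replicates. These were the bhlh89,91 double mutant under low light, bhlh89,91 under normal light, Col-0 under low light and Col-0 under normal light. The mutant carries T-DNA insertions in bHLH89 (SALK-123106) and bHLH91 (GK-345C06), both in the Col-0 background, and Col-0 is the wild type (WT). Low light was 50 µmol m-2 s-1 (measured as 53 ± 5, SD) and normal light 200 µmol m-2 s-1 (measured as 205 ± 8.6, SD), both with a 16 h day. RNA was taken from whole buds before pollen mitosis, which hold anther stages 1 to 10. The design asks how low light changed transcript levels in each genotype and whether bHLH89 and bHLH91 alter that response.

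In Arabidopsis, a haploid microspore leaves meiosis, divides into a vegetative and a generative cell, and becomes pollen, and each step has its own transcription factors. MIKC* MADS proteins act as heterodimers of a P-clade partner (AGL30, AGL65) and an S-clade partner (AGL66, AGL104), and they are known for activating genes of mature pollen. MYB97, MYB101 and MYB120 belong to the GAMYB-like family and are known for the behaviour of the pollen tube when it reaches the ovule. WRKY34 and WRKY2 are known for pollen development, with WRKY34 a substrate of MAP kinases, while DUO1 drives division of the generative cell and the formation of sperm.

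The libraries held 20419619 to 23346158 estimated counts each. As a check of the mutant, bHLH89 had 11.2 to 19.7 TPM (transcripts per 1000000) in bhlh89,91 and 27.7 to 32.7 TPM in Col-0 under low light, and 18.6 to 24.5 TPM in bhlh89,91 and 41.5 to 51.3 TPM in Col-0 under normal light. bHLH91 had 12.2 to 20.9 TPM in bhlh89,91 and 21.1 to 23.6 TPM in Col-0 under low light, and 21.4 to 25.5 TPM in bhlh89,91 and 26.1 to 34.6 TPM in Col-0 under normal light, so reads of both genes were still counted in the mutant. By quantitative RT-PCR under normal light, the authors reported a strong knockdown of both transcripts in this mutant. They place the inserts in the first exon of each gene. The reductions in the TPM values were smaller for both genes. Tapetum markers summed to 1931 to 4911 TPM over all libraries and meiocyte markers to 38.8 to 64.5 TPM, and none of the 11 and 6 genes was at 0 in every library. The 15 markers of late pollen summed to 9.37 to 41.3 TPM, and 7 of them did not reach 1 TPM in any library. Col-0 normal light library 3 stood apart in its group, with a late pollen sum of 41.3 TPM beside 12.9 to 16.3 TPM in the other 3 libraries. In bhlh89,91 under normal light, library 4 had the lowest tapetum sum of its group (3361 TPM beside 4025 to 4560 TPM). Library numbers are those of the deposited columns.

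The GAMYB-like genes and DUO1 are known targets of the microRNA miR159, and their sites are shown because they set these 4 members apart from the other 6 by sequence. The mature miRNAs are given first with the seed (bases 2 to 8) in capitals, from the RefSeq annotation of TAIR10.1. The 3 miRNAs share the seed and differ only at the last bases. The miRNAs themselves were not measured in these tables.
miR159a: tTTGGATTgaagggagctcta
miR159b-3p: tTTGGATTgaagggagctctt
miR159c: tTTGGATTgaagggagctcct

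A scan of the coding sequence of 27555 genes against the perfect complement of miR159a gave the following best matches, in DNA letters, with the bases identical to that complement in capitals.
MYB101: TAGAGCTtCCTTCAAaCCAAA
DUO1: TgGAGCTCCaTTCgATCCAAA
MYB97: atGAGCTCtCTTCAAaCCAAA
MYB120: agcAGCTCCCTTCAAaCCAAA

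The MYB101 match lies in the coding exon at chr2:13783168-13783188 on the minus strand, at bases 896 to 916 of a coding sequence of 1473 bases, and has 2 mismatches, as few as in 2 of the genes scanned (0.00726%). The DUO1 match (chr3:22343375-22343395, minus strand, coding bases 106 to 126) has 3 mismatches, as few as in 7 genes (0.0254%). The matches of MYB97 (chr4:13528587-13528607, plus strand) and MYB120 (chr5:22324982-22325002, minus strand) have 4 mismatches each, as few as in 13 genes (0.0472%). The best windows of the MADS-box and WRKY members had 8 to 10 mismatches, which 37.5% to 96.3% of all genes also reach. A match is a description of sequence, and cleavage was not measured.

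**Figure D1:**
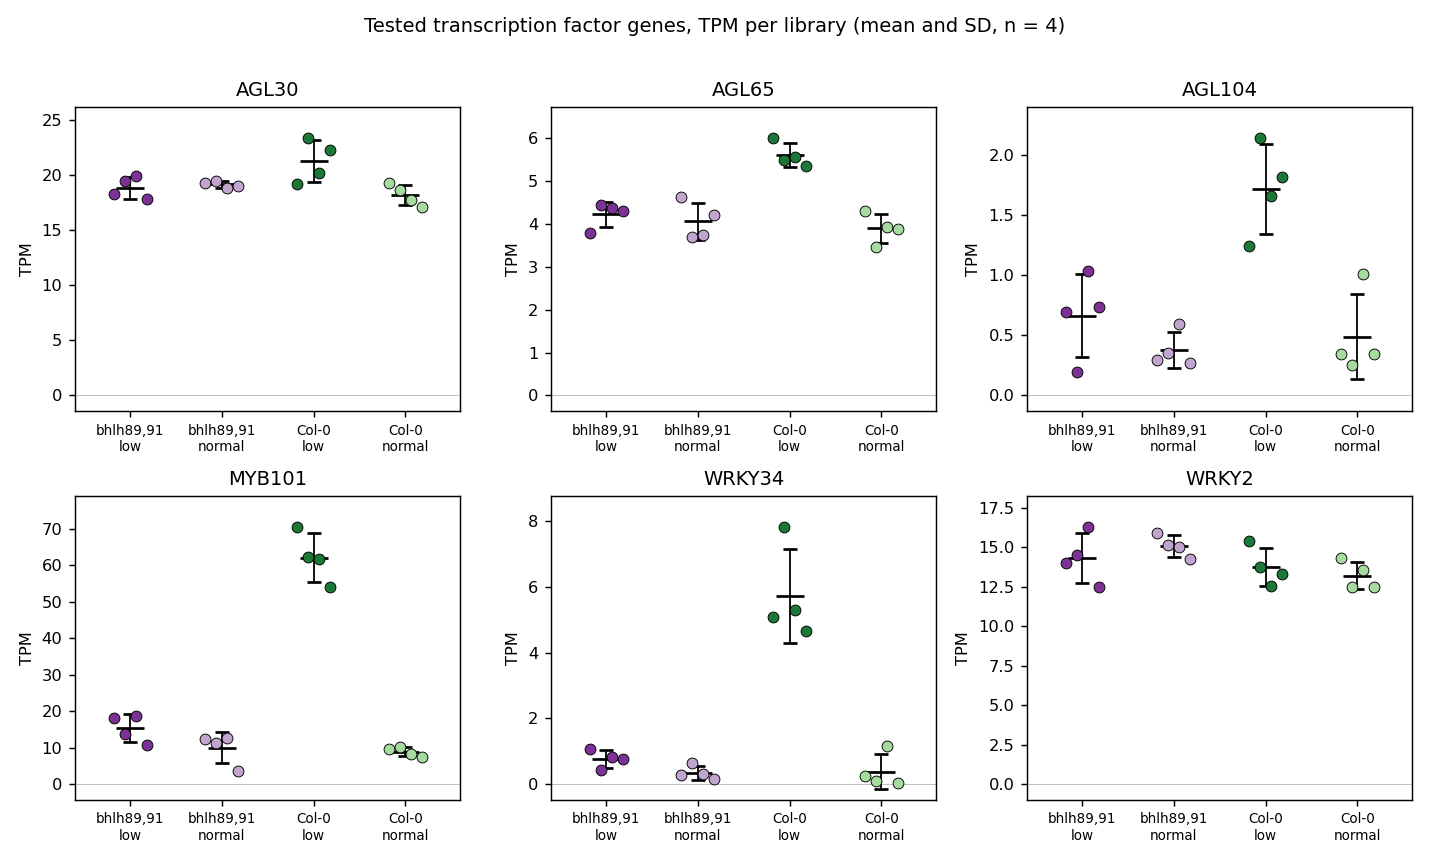
TPM of the 6 tested genes in each of the 16 libraries (points), with the mean and SD of the 4 libraries of each group (bars); each panel has its own linear axis. MYB101, WRKY34, AGL104 and AGL65 were higher in the 4 Col-0 low light libraries than in any library of the other groups, and WRKY2 lay between 12.5 and 16.3 TPM throughout.

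MYB101 had the highest level of the 10 genes in low light Col-0. In bhlh89,91 it had 18.2, 13.7, 18.8 and 10.7 TPM under low light, against 12.3, 11.3, 12.6 and 3.75 TPM under normal light. In Col-0 it had 70.6, 62.3, 61.7 and 53.9 TPM under low light, against 9.68, 10.2, 8.23 and 7.51 TPM under normal light. The light groups were apart in Col-0 and overlapped in bhlh89,91, where library 4 of the normal light group was the lowest of all.

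The mean of MYB101 was 62.1 ± 6.82 TPM in Col-0 under low light and 8.89 ± 1.23 TPM in Col-0 under normal light (SD, n = 4 each), a ratio of 6.98. In edgeR's quasi-likelihood test its log2FC was 2.81 ± 0.26 (SE, Benjamini-Hochberg adjusted p = 3.64e-07). A gene was called where the adjusted p was below 0.01 and the log2FC was 1 or more in size. In bhlh89,91 the log2FC for low against normal light was 0.63 ± 0.26 (adjusted p = 0.0764 in edgeR), which was not called. It was 0.36 without library 4 of the normal light group.

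Under low light, MYB101 in bhlh89,91 was at 24.7% of the Col-0 mean, and the 4 mutant libraries (10.7 to 18.8 TPM) lay below the 4 Col-0 libraries (53.9 to 70.6 TPM). The log2FC of bhlh89,91 against Col-0 was -1.998 ± 0.25 (adjusted p = 1.31e-05, edgeR). Under normal light the mutant mean was 9.99 ± 4.19 TPM and the Col-0 mean 8.89 ± 1.23 TPM (SD, n = 4 each), with a log2FC of 0.19 ± 0.27 (adjusted p = 0.681, edgeR). The light response itself differed between the genotypes: the response of bhlh89,91 minus that of Col-0 was -2.18 ± 0.37 on the log2 scale (adjusted p = 0.000792, edgeR). MYB101 was the only member with a called difference of responses, and it kept that call in all 27 alternatives, with values between -2.46 and -2.02.

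The other GAMYB-like members were at the edge of detection. MYB97 had 1, 3, 2 and 0 counts in bhlh89,91 under low light and 1, 3, 2 and 4 counts in bhlh89,91 under normal light (rounded). It had 18, 5, 8 and 6 counts in Col-0 under low light, against 4, 11, 10 and 4 counts in Col-0 under normal light. The Col-0 groups overlapped, and under low light the mutant and Col-0 groups were apart.

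Over the group, MYB97 had 6 counts in bhlh89,91 and 37.1 counts in Col-0 under low light, a depth-scaled ratio of 0.166 (95% exact binomial interval 0.0573 to 0.397). This interval and those below cover counting error only. In the edgeR fit without the filter, MYB97 was called lower in bhlh89,91 under low light, with a log2FC of -2.52 ± 0.66 (adjusted p = 0.00635). Under normal light MYB97 had 9.98 counts in bhlh89,91 and 29.0 counts in Col-0, a ratio of 0.358 (95% interval 0.156 to 0.758), and the same fit gave a log2FC of -1.43 ± 0.63 (adjusted p = 0.169), which was not called. In its transcripts, 9.25% of the stretches of 31 bases also occur in AT4G26940, MYB120 or AT2G16720, so reads may have been divided between them and its counts are uncertain. MYB120 had at most 3.01 counts in any library and 6.01, 2.01, 4.02 and 3.01 counts over the 4 libraries of bhlh89,91 low light, bhlh89,91 normal light, Col-0 low light and Col-0 normal light, which is too few for a fold.

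WRKY34 had the largest low light ratio in Col-0 among the pollen transcription factor genes that were tested. The bhlh89,91 values were 1.08, 0.419, 0.836 and 0.762 TPM under low light, against 0.279, 0.634, 0.316 and 0.154 TPM under normal light. The Col-0 values were 5.08, 7.83, 5.28 and 4.65 TPM under low light, against 0.242, 0.107, 1.16 and 0.0346 TPM under normal light. The Col-0 low light libraries stood above the other 12, and the highest of those 12 was Col-0 normal light library 3.

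The means of WRKY34 in Col-0 were 5.71 ± 1.43 TPM under low light and 0.385 ± 0.522 TPM under normal light (SD, n = 4 each), a ratio of 14.8. The log2FC was 3.87 ± 0.55 (adjusted p = 2.24e-05, edgeR), and 5.44 without Col-0 normal light library 3. In bhlh89,91 the log2FC for low light was 1.16 ± 0.63 (adjusted p = 0.170, edgeR). Under low light WRKY34 in bhlh89,91 was at 13.6% of the Col-0 mean, with a log2FC of -2.85 ± 0.50 (adjusted p = 0.000258, edgeR).

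The difference of the WRKY34 light responses, bhlh89,91 minus Col-0, was -2.71 ± 0.87 with an adjusted p of 0.0346 in edgeR, which was not called. It was called by DESeq2 (adjusted p = 0.00941), and in edgeR without Col-0 normal light library 3 it was -4.28 (adjusted p = 0.000764). It was not called by limma-voom, and in edgeR it was -2.24 without bhlh89,91 normal light library 2. With a library left out the adjusted p reached 0.117. In all, 6 of 27 alternatives called it. Between the genotypes under normal light the log2FC of WRKY34 was -0.14 ± 0.69 (adjusted p = 0.916, edgeR). It took the other sign, 1.43 (adjusted p = 0.129), without Col-0 normal light library 3. WRKY34 passed the filter in all 4 Col-0 low light libraries, in 2 of bhlh89,91 low light, in 1 of Col-0 normal light and in none of bhlh89,91 normal light.

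WRKY2, its close relative, was even across the groups. It averaged 14.3 ± 1.57 TPM in bhlh89,91 under low light, 15.1 ± 0.696 TPM in bhlh89,91 under normal light, 13.7 ± 1.19 TPM in Col-0 under low light and 13.2 ± 0.878 TPM in Col-0 under normal light (SD, n = 4 each). All groups overlapped. The log2FC for low light was -0.05 ± 0.07 in bhlh89,91 (adjusted p = 0.589) and 0.07 ± 0.07 in Col-0 (adjusted p = 0.444), both from edgeR.

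**Figure D2:**
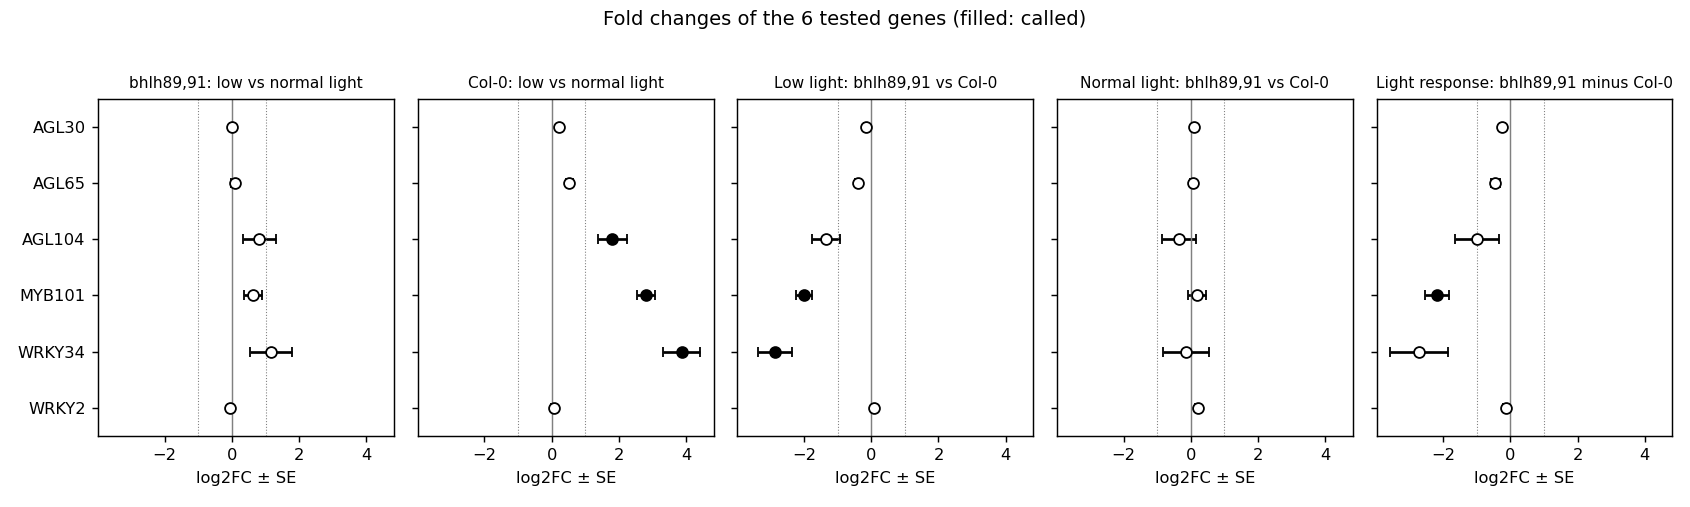
log2FC with its SE (x axis) of the 6 tested genes in the 5 comparisons, from edgeR, with filled points for calls and dotted lines at the fold limit of 1 on the log2 scale. MYB101, WRKY34 and AGL104 were called for Col-0 under low light, MYB101 and WRKY34 for bhlh89,91 against Col-0 under low light, and MYB101 alone for the difference of responses.

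Of the 3 tested MIKC* genes, the S-clade gene AGL104 had the largest log2FC for low light in Col-0. AGL66, which did not pass the filter, had a higher low light ratio of its mean TPM in Col-0 (4.14, against 3.52 for AGL104) on far fewer counts. In bhlh89,91 AGL104 had 0.692, 0.198, 1.03 and 0.738 TPM under low light, against 0.298, 0.350, 0.598 and 0.271 TPM under normal light. In Col-0 it had 1.25, 2.15, 1.66 and 1.82 TPM under low light, against 0.344, 0.254, 1.01 and 0.344 TPM under normal light. The Col-0 light groups were apart and the mutant groups overlapped. Library 3 of Col-0 normal light was again the highest of its group.

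The log2FC of AGL104 for low light in Col-0 was 1.80 ± 0.43 (adjusted p = 0.00216, edgeR), and 2.43 without Col-0 normal light library 3. This rested on 24.0 to 44.1 counts per library in Col-0 under low light and 5.00 to 21.0 counts in Col-0 under normal light, and AGL104 passed the filter only through the Col-0 low light group. In bhlh89,91 the log2FC was 0.81 ± 0.49 (adjusted p = 0.221, edgeR). Under low light AGL104 was at 38.7% of the Col-0 mean in bhlh89,91, with a log2FC of -1.34 ± 0.42 and an adjusted p of 0.0141 (edgeR), just outside the call. The call was made by limma-voom (adjusted p = 0.00526) and DESeq2 (adjusted p = 0.00945), and in all by 5 of 28 alternatives. The log2FC ran from -1.50 to -0.72 over the methods. With a library left out it was -1.62 to -1.05, with an adjusted p of up to 0.0394 (edgeR). The difference of responses was -0.99 ± 0.67 (adjusted p = 0.306, edgeR).

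AGL66, the other S-clade member, had 3, 2, 2 and 0 counts in bhlh89,91 under low light and 0, 0, 0 and 2 counts in bhlh89,91 under normal light (rounded). In Col-0 it had 7, 16, 17 and 8 counts under low light, against 1, 0, 11 and 0 counts under normal light. The mutant and Col-0 groups were apart under low light, and 11 of the 12 counts of Col-0 under normal light came from library 3. Under low light the summed counts gave a ratio of 0.149 for bhlh89,91 over Col-0 (95% interval 0.0570 to 0.332), and in the edgeR fit without the filter the log2FC was -2.68 ± 0.89 (adjusted p = 0.0249), which was not called. AGL66 and AGL104 share 8 stretches of 31 bases with each other, 0.548% and 0.645% of their transcripts.

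The P-clade partners were present in every library and changed little. AGL65 had 3.80, 4.44, 4.37 and 4.29 TPM in bhlh89,91 under low light, against 4.62, 3.69, 3.75 and 4.21 TPM in bhlh89,91 under normal light. In Col-0 it had 6.01, 5.49, 5.56 and 5.36 TPM under low light, against 4.31, 3.47, 3.94 and 3.87 TPM under normal light. The Col-0 low light libraries were apart from the other 3 groups.

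AGL65 had a log2FC of 0.53 ± 0.09 for low light in Col-0 (adjusted p = 0.000173) and of -0.38 ± 0.09 for bhlh89,91 against Col-0 under low light (adjusted p = 0.00308), both from edgeR. Both p-values were under the limit and both folds under the fold limit, so neither was called. The difference of its responses was -0.45 ± 0.13 (adjusted p = 0.0232, edgeR). AGL30 averaged 18.9 ± 0.971 TPM in bhlh89,91 under low light, 19.2 ± 0.300 TPM in bhlh89,91 under normal light, 21.3 ± 1.90 TPM in Col-0 under low light and 18.2 ± 0.932 TPM in Col-0 under normal light (SD, n = 4 each), with a log2FC of 0.23 ± 0.06 for low light in Col-0 (adjusted p = 0.00249, edgeR). Its groups overlapped in every comparison.

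**Figure D3:**
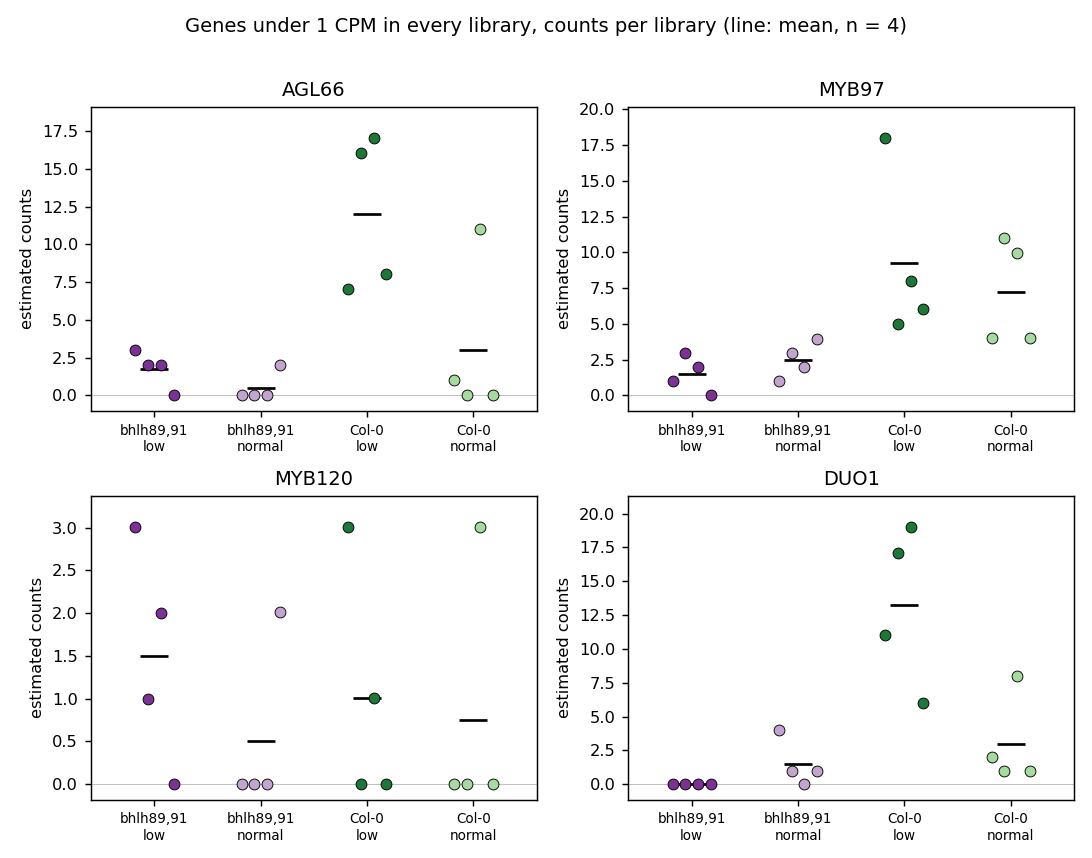
Estimated counts of the 4 genes under 1 CPM in each of the 16 libraries (points), with the mean of each group (line) and a linear axis per panel. DUO1 was at 0 in the 4 bhlh89,91 low light libraries and between 6 and 19 counts in the 4 Col-0 low light libraries.

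DUO1 was not counted once in bhlh89,91 under low light. Its counts there were 0, 0, 0 and 0, and in bhlh89,91 under normal light 4, 1, 0 and 1 (rounded). In Col-0 it had 11, 17, 19 and 6 counts under low light, against 2, 1, 8 and 1 counts under normal light. The mutant and Col-0 low light groups were apart, and 8 of the 12 counts of Col-0 under normal light (rounded) came from library 3.

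Against a floor of 3 counts over the group, DUO1 was at least 17.3-fold lower in bhlh89,91 than in Col-0 under low light, where Col-0 had 53.1 counts in all. The edgeR fit without the filter called it (adjusted p = 0.000374). In Col-0 the sums of 53.1 counts under low light and 12 counts under normal light gave a ratio of 4.46 (95% interval 2.34 to 9.13), with an adjusted p of 0.0168 in the same fit, which was not called. At 0 to 19 counts per library, smaller differences of DUO1 were not detectable.

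Among the 5 sperm lineage markers, the pair with the most reads had log2FCs of the opposite sign to DUO1 for low light in Col-0 and for bhlh89,91 against Col-0 under low light. HAP2, the gamete fusion protein, averaged 0.869 ± 0.179 TPM in bhlh89,91 under low light, 1.33 ± 0.171 TPM in bhlh89,91 under normal light, 0.683 ± 0.117 TPM in Col-0 under low light and 1.17 ± 0.0579 TPM in Col-0 under normal light (SD, n = 4 each). Its log2FC was -0.77 ± 0.17 for low light in Col-0 (adjusted p = 0.00127) and 0.37 ± 0.18 for bhlh89,91 against Col-0 under low light (adjusted p = 0.0921), both from edgeR. GEX2, a gamete membrane protein, had a log2FC of -0.29 ± 0.09 for low light in Col-0 (adjusted p = 0.0113) and of 0.36 ± 0.09 for bhlh89,91 against Col-0 under low light (adjusted p = 0.00316, edgeR). Neither was called in any of the 5 comparisons. The other 3 were not tested. Of these, MGH3, the sperm histone H3 that DUO1 activates, was at 0 in all 8 bhlh89,91 libraries, at 2 to 4 counts in each Col-0 low light library and at 1 count in Col-0 normal light library 3 alone, and DAZ1 and DAZ2, zinc finger proteins that DUO1 activates, had at most 4.02 counts in any library.

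Counted over the list, 3 of the 6 tested members were called higher in Col-0 under low light, where 5.86% of all tested genes were. In bhlh89,91 no member was called for low light (3.42% of all genes in either direction) by edgeR, limma-voom or DESeq2, and 1 had an unadjusted p under 0.05, which was MYB101. Under low light 2 were called lower in bhlh89,91 than in Col-0 (3.6% of all genes), and 3 with limma-voom or DESeq2. Under normal light none was called between the genotypes by any of these tools (1.59% in either direction), and 1 had an unadjusted p under 0.05, which was WRKY2 with a log2FC of 0.20 ± 0.07 (adjusted p = 0.0623, edgeR). For the difference of responses 1 was called lower (1.75% of all genes). Without Col-0 normal light library 3 and bhlh89,91 normal light library 4, the 5 counts were 3, 0, 3, 0 and 2. The members were chosen by name with results of these data known, and AGL104 passed the filter only where it was high, so these counts are descriptions.

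The median log2FC of the 6 tested members was 0.35 in bhlh89,91 and 1.17 in Col-0 for low light, against -0.00 and -0.01 over all tested genes. It was -0.86 for bhlh89,91 against Col-0 under low light and 0.08 under normal light, against 0.00 and -0.00 over all tested genes. Comparisons that share a group share its libraries, so these medians are not independent of each other. They also include AGL104, which passed the filter only through the Col-0 low light group. AGL104 was a middle value for low light in Col-0 (1.80, beside 0.53 for AGL65). The same held for bhlh89,91 against Col-0 under low light (-1.34, beside -0.38 for AGL65). Both medians therefore rest in part on AGL104.

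On the TPM scale, which is per length, the order of the genes changed with the group. In Col-0 under low light it ran from MYB101 (62.1 TPM) through AGL30 (21.3), WRKY2 (13.7), WRKY34 (5.71), AGL65 (5.60), AGL104 (1.72), DUO1 (0.807), MYB97 (0.521) and AGL66 (0.497) to MYB120 (0.0355 TPM, all group means). In that order WRKY34 overlapped AGL65, and DUO1, MYB97 and AGL66 overlapped each other. In bhlh89,91 under low light AGL30 (18.9 TPM) stood first and overlapped MYB101 (15.4 TPM), which overlapped WRKY2 (14.3 TPM). In both normal light groups AGL30 had the highest mean, followed by WRKY2 and MYB101.

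**Figure D4:**
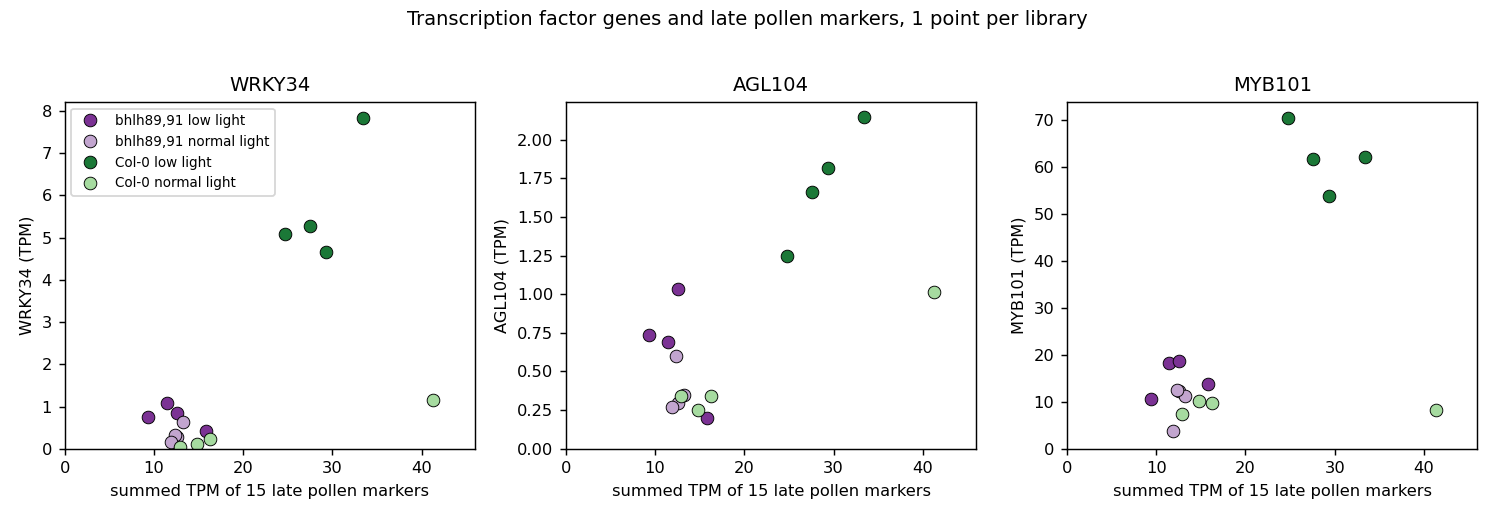
TPM of WRKY34, AGL104 and MYB101 (y axes) against the summed TPM of 15 late pollen markers (x axis), 1 point per library. The Col-0 low light libraries had 24.7 to 33.4 TPM of markers and the highest levels of all 3 genes. Col-0 normal light library 3 had the highest marker sum, 41.3 TPM, with 1.16 TPM of WRKY34, 1.01 TPM of AGL104 and 8.23 TPM of MYB101. It was the highest library of its group for WRKY34 and AGL104 and within the range of its group for MYB101. Different markers made up the sum. In Col-0, VGD1 reached 12.8 TPM under normal light and 4.38 TPM under low light, and ACT12 reached 6.08 and 11.2 TPM.

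Markers of late pollen are given beside these genes. Their sum was 9.37 to 15.8 TPM in bhlh89,91 under low light, 11.9 to 13.2 TPM in bhlh89,91 under normal light, 24.7 to 33.4 TPM in Col-0 under low light and 12.9 to 41.3 TPM in Col-0 under normal light. Of the 15 markers 10 were tested, of which 1 was called higher in Col-0 under low light (ACT12, an actin of pollen), where 5.86% of all tested genes were. Under low light 2 were called lower in bhlh89,91 than in Col-0 (ACT4 and ACT12), where 3.6% of all tested genes were. Under normal light 1 was called lower in bhlh89,91 than in Col-0 (1.59% of all tested genes were called in either direction). It was the pollen tube receptor kinase BUPS1 (log2FC -1.05 ± 0.11, adjusted p = 2.62e-05, edgeR), whose log2FC under low light was -0.99 ± 0.11. The median log2FC of the 10 was 0.05 in bhlh89,91 and 0.21 in Col-0 for low light, -1.14 for bhlh89,91 against Col-0 under low light, -1.69 under normal light and 0.05 for the difference of responses. These medians include Col-0 normal light library 3, with a marker sum of 41.3 TPM beside 12.9 to 16.3 TPM in the rest of its group. In that group 1 library held 78.1 of 83.7 counts of PRF4 and all 40.9 counts of PRF5. Medians that use this group therefore rest in part on 1 library. For the 6 tested members the medians between the genotypes were -0.86 under low light and 0.08 under normal light. The -0.86 rests in part on AGL104, which passed the filter only through the Col-0 low light group. None of the 15 was at 0 in every library. In Col-0 normal light library 3, where the marker sum was highest, WRKY34, AGL104, AGL66, DUO1 and MYB120 were the highest of their group. WRKY34 had 1.16 TPM there, beside 0.0346 to 0.242 TPM, and AGL104 1.01 TPM, beside 0.254 to 0.344 TPM. In the same library MYB101, MYB97, AGL30, AGL65 and WRKY2 were within the range of their group. Meiocyte markers summed to 45.4 to 55.1 TPM in bhlh89,91 and 38.8 to 42.3 TPM in Col-0 under low light, and to 56.5 to 64.5 TPM in bhlh89,91 and 58.0 to 63.5 TPM in Col-0 under normal light, with none of the 6 called. Marker sums of other tissues also differed with light in Col-0, where the light groups were apart for each of 3 lists. Tapetum markers summed to 2296 to 2804 TPM under low light and 3623 to 4911 TPM under normal light, and 1 of the 11 was called lower (TDF1, log2FC -1.28 ± 0.16). Pistil and ovule markers summed to 197 to 217 TPM under low light and 170 to 184 TPM under normal light, and 1 of the 6 was called higher (INO, log2FC 2.08 ± 0.46). Markers of green tissue summed to 7338 to 8227 TPM under low light and 9974 to 10590 TPM under normal light, with none of the 4 called. In bhlh89,91 under low light the sums were 1931 to 3368 TPM for tapetum, 176 to 219 TPM for pistil and ovule and 8728 to 10050 TPM for green tissue. The part of these markers in the results was not tested. In whole buds, fewer cells of a type and less RNA per cell cannot be told apart.

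Genes linked to the members by family or pathway formed a list of 24, of which 23 were in the tables and 16 were tested. In Col-0 under low light 2 of the 16 were called higher (5.86% of all tested genes were), and in bhlh89,91 under low light 1 was called higher (2.18%). In bhlh89,91 against Col-0 under low light 1 was called lower (3.6% of all tested genes were). Under normal light none was called between the genotypes by edgeR, and for the difference of responses 1 was called lower (1.75%). The list's median log2FC was -0.05 for low light in both genotypes. The 7 genes around the WRKY proteins and the 5 tested genes of the DUO1 list had 1 gene each with a call.

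TET11, a tetraspanin known from sperm cells, had the largest log2FC for low light in Col-0 among the 16 tested genes of the list. The bhlh89,91 values were 0.522, 0.116, 0.364 and 0.404 TPM under low light, against 1.93, 2.94, 1.99 and 0 TPM under normal light. In Col-0 it had 7.61, 9.45, 11.04 and 5.87 TPM under low light, against 0.0576, 0.894, 1.81 and 0 TPM under normal light. TET11 was highest in the Col-0 low light libraries, and within the mutant 3 of the 4 normal light libraries lay above every low light library.

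The log2FC of TET11 was 3.61 ± 0.75 for low light in Col-0 (adjusted p = 0.000696) and -4.54 ± 0.83 for bhlh89,91 against Col-0 under low light (adjusted p = 0.000331), both from edgeR. The difference of its light responses was -5.87 ± 1.16 (adjusted p = 0.0024, edgeR). It was not called for that difference with limma-voom (adjusted p = 0.0293). Without Col-0 normal light library 3 the log2FC in Col-0 was 4.74 and the difference of responses -7.00.

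AGL94, the remaining P-clade MIKC* gene, averaged 2.02 ± 0.455 TPM in Col-0 under low light and 0.918 ± 0.512 TPM in Col-0 under normal light (SD, n = 4 each). Its log2FC was 1.14 ± 0.32 (adjusted p = 0.00576, edgeR), and leaving out any 1 of Col-0 low light libraries 2, 3 and 4 or Col-0 normal light libraries 1, 2 and 4 ended the call (log2FC 0.97 to 1.18 over those libraries). In bhlh89,91 AGL94 averaged 1.575 ± 0.488 TPM under low light and 1.85 ± 0.338 TPM under normal light. Its lowest group mean was thus that of Col-0 under normal light. Against that group bhlh89,91 had a log2FC of 1.02 ± 0.32 (adjusted p = 0.0391, edgeR), which was not called. MPK3, a MAP kinase known to act on WRKY34, averaged 79.1 ± 44.1 TPM in bhlh89,91 under low light and 32.4 ± 8.43 TPM in bhlh89,91 under normal light (SD, n = 4 each). Its log2FC was 1.31 ± 0.33 (adjusted p = 0.00723, edgeR), which was 0.89 without bhlh89,91 low light library 2 and lost its call in 15 of 28 alternatives.

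MYB81, a GAMYB-like gene known for the first pollen mitosis, was singled out after its values were seen, because its p-values passed and its fold did not. That also held for other genes of the list, which were not singled out. MPK6 had log2FCs of 0.37 for low light in Col-0, -0.35 for bhlh89,91 against Col-0 under low light and -0.33 for the difference of responses. In the first and second of these, DUO3 had 0.27 and -0.30. MKK4 (-0.53 and 0.62) and MKK5 (-0.43 and 0.55) had the opposite signs there. MYB81 averaged 7.52 ± 1.43 TPM in bhlh89,91 under low light, 7.41 ± 1.15 TPM in bhlh89,91 under normal light, 13.9 ± 1.22 TPM in Col-0 under low light and 7.29 ± 1.16 TPM in Col-0 under normal light (SD, n = 4 each). Its 4 Col-0 low light libraries (12.2 to 14.9 TPM) lay above all others (5.77 to 9.46 TPM). The log2FC was 0.94 ± 0.14 for low light in Col-0 (adjusted p = 2.93e-05) and -0.86 ± 0.14 for bhlh89,91 against Col-0 under low light (adjusted p = 0.000104), and the difference of responses was -0.90 ± 0.20 (adjusted p = 0.00414), all from edgeR.

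**Figure D5:**
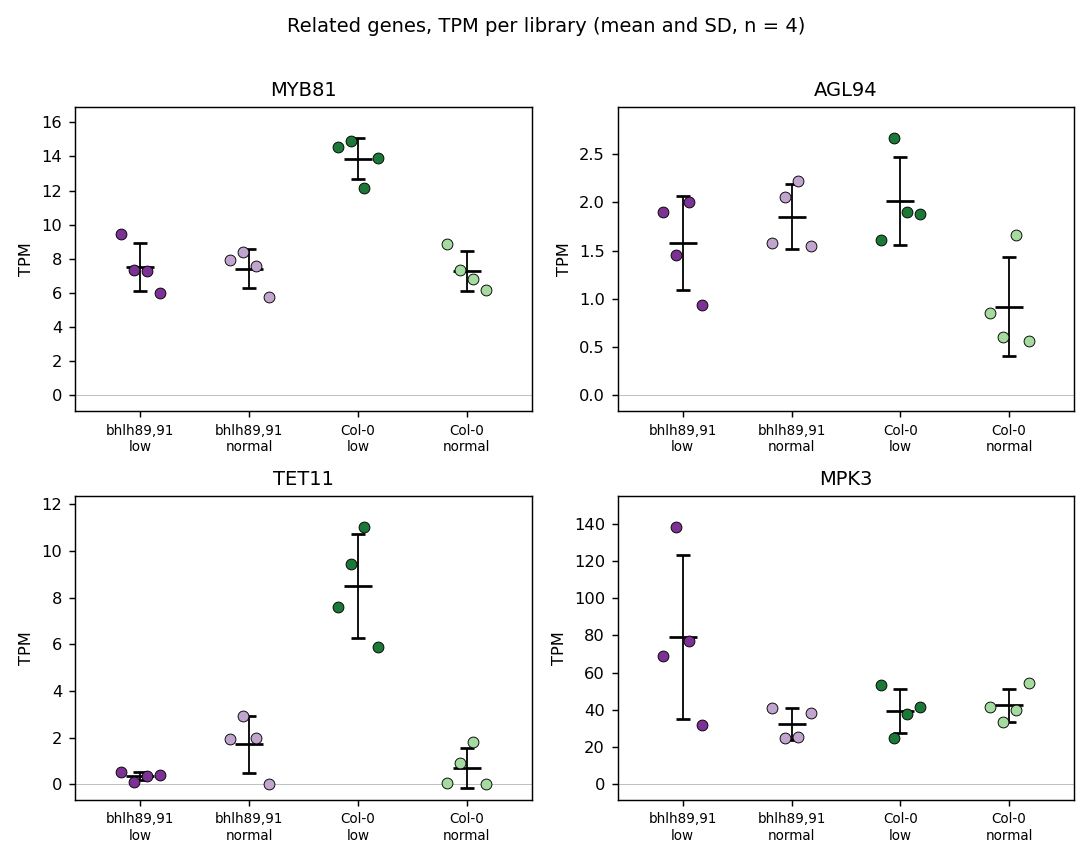
TPM of MYB81, AGL94, TET11 and MPK3 in each of the 16 libraries (points), with the mean and SD of each group (bars) and a linear axis per panel. MYB81 and TET11 were highest in the 4 Col-0 low light libraries, and MPK3 reached 138 TPM in 1 bhlh89,91 low light library.

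MYB33 and MYB65, the GAMYB-like genes of the tapetum, were not called in any comparison. In Col-0, MYB33 averaged 28.4 ± 1.14 TPM under low light and 26.3 ± 0.371 TPM under normal light (log2FC 0.12 ± 0.06, adjusted p = 0.111, edgeR). MYB65 averaged 8.58 ± 0.465 TPM in Col-0 under low light and 8.94 ± 0.443 TPM in Col-0 under normal light (log2FC -0.05 ± 0.07, adjusted p = 0.548, edgeR). Their best miR159 match is the same in both genes and is printed for comparison with the members' sites above, with that of MYB81, in the same notation.
MYB33: TgGAGCTCCCTTCAtTCCAAt
MYB65: TgGAGCTCCCTTCAtTCCAAt
MYB81: TcGAGtTCCCTTCAtTCCAAt

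MYB33 and MYB65 have 3 mismatches to the perfect complement and MYB81 has 4. Genes with such a match include MYB101, called in Col-0 under low light, and MYB33 and MYB65, which were not called, and no relation between the number of mismatches and the response was tested.

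The genes whose log2-CPM pattern was most like each member over the 16 libraries were taken from 16414 genes with a mean of at least 5 CPM. For WRKY34 they were PUM7 (a Pumilio RNA-binding protein, Pearson's r 0.982) and LBD27 (SIDECAR POLLEN, known for the division of the microspore, 0.971). For MYB101 they were the protein kinase gene AT4G14780 (0.983) and BGAL15 (a beta-galactosidase, 0.978), and for AGL104 FRO3 (0.946) and ARI1 (0.939). AGL65 was most like NADK1 (an NAD kinase, 0.947) and AT5G40910 (0.939), AGL30 most like UGE2 (0.842) and AT3G45420 (0.837), and WRKY2 most like AT1G09870 (0.819) and AT5G59250 (0.816). Among the members, MYB101 and WRKY34 had an r of 0.892 and WRKY34 and AGL104 of 0.898, while WRKY2 lay between -0.12 and 0.09 with the other 5. The points share 4 groups, so these values describe the group pattern.

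The 250 bases upstream of the annotated start are printed for the 3 genes called in Col-0 under low light, from the RefSeq genome TAIR10.1, because bHLH proteins are known to bind E-boxes (CANNTG). E-boxes are in capitals. The MYB101 window is chr2:13784484-13784733, the WRKY34 window chr4:13359552-13359801 and the AGL104 window chr1:7814346-7814595, all on the minus strand.
MYB101: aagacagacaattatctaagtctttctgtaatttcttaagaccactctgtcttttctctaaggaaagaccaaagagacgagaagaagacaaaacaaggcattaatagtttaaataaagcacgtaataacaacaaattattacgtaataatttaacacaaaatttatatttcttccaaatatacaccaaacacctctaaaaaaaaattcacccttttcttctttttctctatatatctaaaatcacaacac
WRKY34: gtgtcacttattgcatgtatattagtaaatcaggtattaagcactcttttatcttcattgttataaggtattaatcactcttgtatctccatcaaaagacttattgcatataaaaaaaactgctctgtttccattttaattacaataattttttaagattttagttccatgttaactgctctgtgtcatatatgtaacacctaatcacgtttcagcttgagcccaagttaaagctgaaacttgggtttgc
AGL104: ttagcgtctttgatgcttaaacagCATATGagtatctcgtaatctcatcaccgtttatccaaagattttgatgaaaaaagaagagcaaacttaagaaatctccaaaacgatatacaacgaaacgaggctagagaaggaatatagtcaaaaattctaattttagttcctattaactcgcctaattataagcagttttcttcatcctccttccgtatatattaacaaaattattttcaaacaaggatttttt

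The AGL104 window holds 1 E-box (CATATG), and the windows of MYB101 and WRKY34 hold none. Over both strands 6 of the 10 members have an E-box in this window, against 55.3% of 27443 genes. The G-box CACGTG, itself an E-box, is in the window of WRKY2 alone (6.49% of all genes). The W-box core TTGAC is in 4 of 10 (44.9% of all genes) and the GAMYB box TAACAAA in 2 of 10 (16.1% of all genes), AGL65 and AGL104. These shares describe letters in a short window and say nothing of binding.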

How the data were processed

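Buds of 2 genotypes in 2 light conditions gave 16 libraries (100-base paired reads, BGISEQ-500). The authors mapped reads to the AtRTD2 transcripts with Salmon, summed them per gene by tximport's length-scaled TPM option, and deposited estimated counts and, separately, TPM per gene and library. No build is named for AtRTD2, so coordinates and sequences are those of RefSeq TAIR10.1 by locus. The deposited columns name the group and a number that is not the label's replicate number.

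Estimated counts were rounded. Genes that reached 1 CPM in any library were tested with edgeR 4.0.16 (R 4.3.3): TMM factors (0.977 to 1.02), 1 mean per group, quasi-likelihood F test, Benjamini-Hochberg adjustment over 21309 genes. Alternatives used limma 3.58.1, DESeq2 1.42.0, other scalings, filters and thresholds, log2(TPM + 1) and log2(TPM + 0.1), and each library left out. Tested on simulated data, edgeR recovered 200 of 200 genes with a log2FC of 2 for low light in Col-0 and 192 of 200 for the interaction, among 20860 genes. The changed genes were drawn from those with a mean of at least 1 CPM, with the spread typical of their level. The recovery therefore does not describe genes with fewer counts, or with a wider spread such as WRKY34 in Col-0 under normal light. Replicate pairs differed by more than sampling noise in all 24 pairs.

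The members and lists were chosen with earlier results of these data known. All members are named, with genes of the related list called in a comparison and the 2 most similar genes of each tested member. p-values rest on the spread between biological replicates, with 4 per group. In the main fit this spread was estimated over all 4 groups together and drawn towards that of other genes. It is therefore not the spread of the compared groups alone.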

Additional observations from a re-analysis of the deposited data

Results flagged for a closer look

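Within groups of 4 libraries, a library whose gap to the nearest other exceeded Dixon's 95% critical value for 4 samples, as a share of the group's range, was noted. This held in 7 of 39 sets of 1 gene in 1 group with any spread. Chance gives about 1 in 20 for independent normal values, and these sets share libraries and hold zeros, so the share cannot be set against it. AGL66 and MYB120 in bhlh89,91 under normal light and MYB120 in Col-0 under normal light had all their counts in 1 library, which gives such a gap by itself. In Col-0 under normal light, library 3 was the high one for AGL66 (0.439 TPM), AGL104 (1.01 TPM), MYB120 (0.0998 TPM) and DUO1 (0.468 TPM). Its late pollen marker sum, 41.3 TPM, was also the highest of its group. In bhlh89,91 under normal light, library 4 was the high one for AGL66 (0.0899 TPM) and MYB120 (0.0751 TPM), which rest on about 2 counts each, and the low one for MYB101 (3.75 TPM). The cause of these gaps was not tested.

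The MYB101 light response differed between the genotypes, by -2.18 on the log2 scale (bhlh89,91 minus Col-0, adjusted p = 0.000792, edgeR). MYB101 was higher under low light than in any normal light library in 4 of 4 Col-0 libraries.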

How the results depend on the processing

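No paired analysis was possible because the deposited columns do not carry the labels' replicate numbers. With an adjusted p under 0.05 and no fold limit, the calls among members became 5 for low light in Col-0, 5 for bhlh89,91 against Col-0 under low light and 4 for the difference of responses. Without the filter on low counts (10 members tested), 4 members were called for bhlh89,91 against Col-0 under low light. The share of all genes called was not taken under either setting, so these counts cannot be set beside it and say nothing particular to the members. The difference of responses gave 2 calls with DESeq2, with log2(TPM + 1), with log2(TPM + 0.1) and without Col-0 normal light library 3 together with bhlh89,91 normal light library 4, a setting chosen after seeing the data. With each library left out in turn it gave 1 to 2, the higher one without Col-0 normal light library 3. All other counts of calls stayed within 1.5 times.

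Only values that were not called changed sign. AGL30 for low light in bhlh89,91 was 0.0002 with RLE factors, 0.0001 without the filter, 0.0003 with 1 CPM in 4 libraries and -0.0223 to 0.0186 with a library left out. For bhlh89,91 against Col-0 under normal light, WRKY34 was 0.62 with limma-voom, 0.0119 with log2(TPM + 1), 0.32 with log2(TPM + 0.1), 1.66 without both libraries and -0.61 to 1.43 with a library left out. AGL104 was 0.41 and -0.66 to 0.28 in the same 2 cases, and AGL65 -0.0086 to 0.11 with a library left out. The cause of these changes was not tested. AGL104 in Col-0 fell to 0.88, under the fold limit, on log2(TPM + 1), a scale that understates low genes. Depth limits AGL66, MYB97, MYB120 and DUO1, which had at most 19 counts per library.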
